A study of Mus musculus with 12 samples.

Results

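Solute carriers are membrane proteins that move amino acids, sugars, metals, ions, nucleotides and other small solutes into cells, out of cells and between compartments. The genes described here are all symbols of the expression table that follow the family pattern (SLC, a family number, A and a member number) and have a mean of at least 1 TPM over all libraries. TPM are transcript counts scaled for transcript length and to a fixed total per library. Of 23636 symbols in the table, 334 followed the pattern, and 137 of these, from 38 families, reached the mean. They were measured in CT26, a mouse colon carcinoma cell line grown in culture. There were 3 biological replicates in each of 4 groups: no treatment, recombinant CX3CL1 (fractalkine, the chemokine ligand of the receptor CX3CR1) at 2 µg/ml, IFN-γ (a cytokine of activated lymphocytes) at 100 ng/ml, and CX3CL1 together with IFN-γ. The exposure was 8 hours, as the study's methods and legends give it, and every group was the same unmodified cell line without a transgene or a deletion.

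Carriers of the SLC type work as exchangers, as cotransporters that use a sodium or proton gradient, or as facilitators. Several of them serve immune and tumor metabolism. The cystine/glutamate exchanger SLC7A11, held at the membrane by its heavy chain SLC3A2, supplies the cysteine of glutathione. The NRAMP proteins SLC11A1 and SLC11A2 move iron and manganese, and the SLC25 family exchanges metabolites across the inner mitochondrial membrane. Gene symbols are written in capitals, as the table has them, although the cells are mouse.

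The libraries were checked against their labels. All 9 genes of an IFN-γ response list were higher with IFN-γ than without treatment, and so were all 5 genes of a CX3CL1 response list with CX3CL1, which is no independent evidence since that list was drawn up with the study's results on these samples in view. The calls alone do not tell the agents apart. All 5 genes of the CX3CL1 list were also called higher with IFN-γ (median 2.07, against 3.65 with CX3CL1). All 9 of the IFN-γ list were positive with CX3CL1, with 3 called (median 1.12, against 2.97 with IFN-γ). Of 8 epithelial and carcinoma markers only 2 reached 1 TPM, and 1 was listed at 0 in every library. Their summed level was 51.2 to 64.7 TPM without treatment, 33.6 to 44.4 with CX3CL1, 35.7 to 41.8 with IFN-γ and 24.9 to 33.2 with both agents. All 6 mesenchymal markers reached 1 TPM, with summed levels of 9022 to 12924 TPM without treatment and 3664 to 6253 with both agents. None of 8 leukocyte markers and none of 6 endothelial and red cell markers reached it. The part of these markers in the results below was not tested. CX3CL1 replicate 2 stood apart, since its genes differed from those of replicates 1 and 3 by 0.266 and 0.262 in the median (absolute log2), and replicates 1 and 3 differed by 0.141. Calls that its absence ended are given with and without it.

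The members covered a wide range of levels. Of the 137 genes, 37 had a mean of 1 to 10 TPM, 83 a mean of 10 to 100 TPM and 17 a mean of 100 TPM or more, and no member was listed at 0 in any library. Their median of 22.9 TPM compared with 27.5 TPM for all 10754 genes at or above 1 TPM. Just inside the threshold were SLC27A3 at 1.09 TPM, SLC11A1 at 1.06 TPM and SLC25A47 at 1.03 TPM, and just outside it were SLC22A21 at 0.790 TPM, SLC26A11 at 0.774 TPM and SLC38A1 at 0.685 TPM. Mean levels reached 1 TPM in each of the 4 groups for 133 members. SLC11A1 alone was under 1 TPM without treatment, so it entered through the treated libraries and its values below are read with that in mind. Among well-known carriers, the cationic amino acid transporter SLC7A2, the iron exporter SLC40A1 and the nucleoside transporter SLC28A2 were listed at 0 in every library, and the peptide/histidine transporter SLC15A3 had a mean of 0.0911 TPM.

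The 10 most abundant members held 50.2% of the summed TPM of all 137. The leaders were mitochondrial. The adenine nucleotide translocase SLC25A5 had a mean of 1062 TPM, the mitochondrial phosphate carrier SLC25A3 a mean of 848 TPM, and the second translocase SLC25A4 a mean of 633 TPM. The next were carriers of the plasma membrane: the glutamine transporters SLC38A2 at 420 TPM and SLC1A5 at 245 TPM, and the leucine exchanger SLC7A5 at 233 TPM. They were followed by the zinc transporter SLC39A7 at 207 TPM, the mitochondrial carrier SLC25A39 at 203 TPM, the lactate transporter SLC16A1 at 194 TPM and the heavy chain SLC3A2 at 194 TPM.

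**Figure D1:**
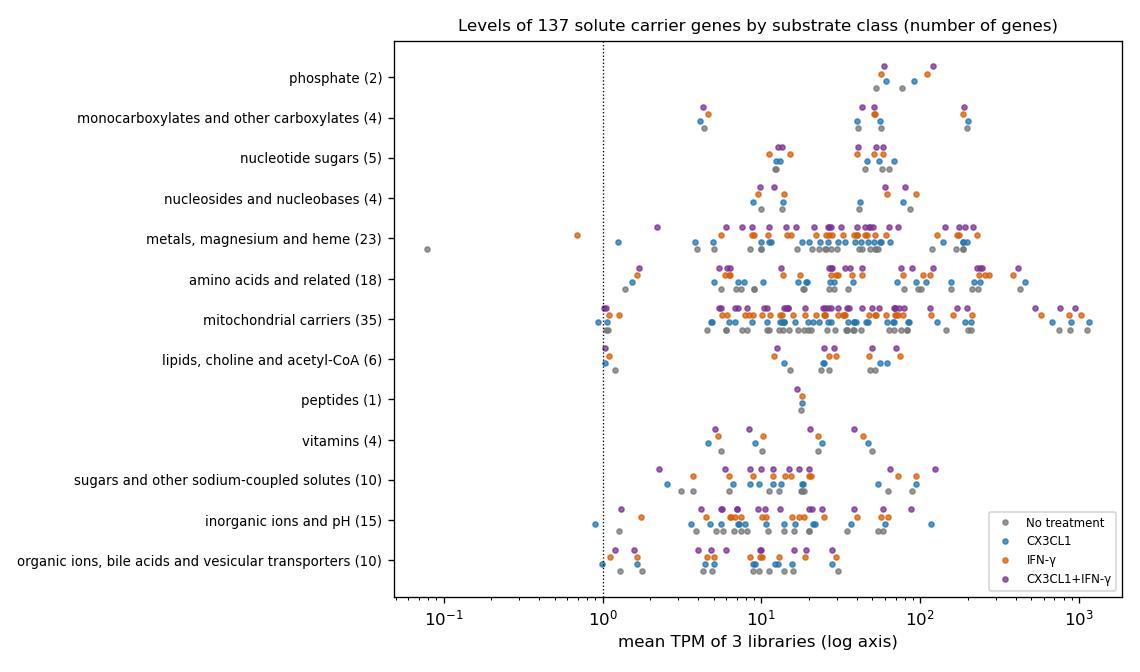
Mean TPM of 3 libraries (log axis) for each of the 137 members, in rows by substrate class with the number of genes in parentheses and 1 color per group. The dotted line marks 1 TPM. Mitochondrial carriers reach the highest levels, and 1 metal transporter, SLC11A1, lies far left of the line without treatment.

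By family the members fell into 13 substrate classes, the largest being 35 mitochondrial carriers, 23 carriers of metals, magnesium and heme, 18 of amino acids and 15 of inorganic ions and pH. Summed over its 18 members, the amino acid class stood at 1467 ± 142 TPM (SD, n = 3) without treatment, 1525 ± 139 with CX3CL1, 1665 ± 67.6 with IFN-γ and 1637 ± 23.4 with both agents. The ion class stood at 267 ± 18.4 TPM without treatment and 334 ± 18.7 with CX3CL1, with no overlap of the libraries, and SLC12A2 made most of that difference (58.5 against 117 TPM). The mitochondrial class moved the other way, from 4119 ± 390 TPM without treatment to 3810 ± 181 with IFN-γ and 3567 ± 466 with both, with overlapping libraries. Summed over all members, the level was 8401 ± 569 TPM without treatment, 8624 ± 168 with CX3CL1, 8468 ± 258 with IFN-γ and 8273 ± 350 with both. Bulk RNA cannot tell fewer cells of a state from less RNA per cell.

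Each agent was compared in the absence and in the presence of the other, which gives 4 comparisons. Changes are differences of log2(TPM + 1), fitted by limma over all 11878 genes that averaged 0.2 TPM or more, and called at a Benjamini-Hochberg adjusted p under 0.05 over all of them. With CX3CL1 against no treatment, 5 of the 137 members rose and none fell (3.65%), where 1.95% of all genes tested were called, 1.78% as higher and 0.168% as lower. With IFN-γ against no treatment, 11 rose and 1 fell (8.76%), where the share of all genes was 7.85%, with 5.91% higher and 1.94% lower. With both agents against IFN-γ alone, 1 member rose (0.730%), where 0.362% of all genes were called (0.345% higher, 0.0168% lower). With both against CX3CL1 alone 5 rose and 1 fell (4.38%), where 4.7% of all genes were called (3.76% higher, 0.935% lower). The shares for IFN-γ were thus near those of all genes. At an unadjusted p under 0.05 there were 8, 39, 8 and 21 members in these comparisons (5.84%, 28.5%, 5.84% and 15.3%), against 8.07%, 22.0%, 4.35% and 17.7% of all genes. The 24 calls belonged to 14 genes. SLC11A1, which had to differ to be a member, is 1 of the 5 with CX3CL1, 1 of the 11 with IFN-γ and the only 1 with CX3CL1 added to IFN-γ.

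Most members stayed close to their untreated level. The log2 difference was within 0.5 for 131 members with CX3CL1 and for 119 with IFN-γ. The median over the members was 0.02 with CX3CL1 (all genes -0.02) and 0.08 with IFN-γ (all genes 0.03). In the presence of the other agent it was -0.04 for CX3CL1 (all genes -0.0030) and 0.03 for IFN-γ (all genes 0.04). These medians depended on scaling: with quantile normalization that for IFN-γ against no treatment was -0.0016, and that for IFN-γ in the presence of CX3CL1 was -0.06. The groups of 3 did not overlap for 10.2% of members with CX3CL1 (all genes 11.2%) and 35.0% with IFN-γ (all genes 34.2%). In the presence of the other agent these shares were 15.3% for CX3CL1 (all genes 16.3%) and 21.9% for IFN-γ (all genes 19.5%).

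**Figure D2:**
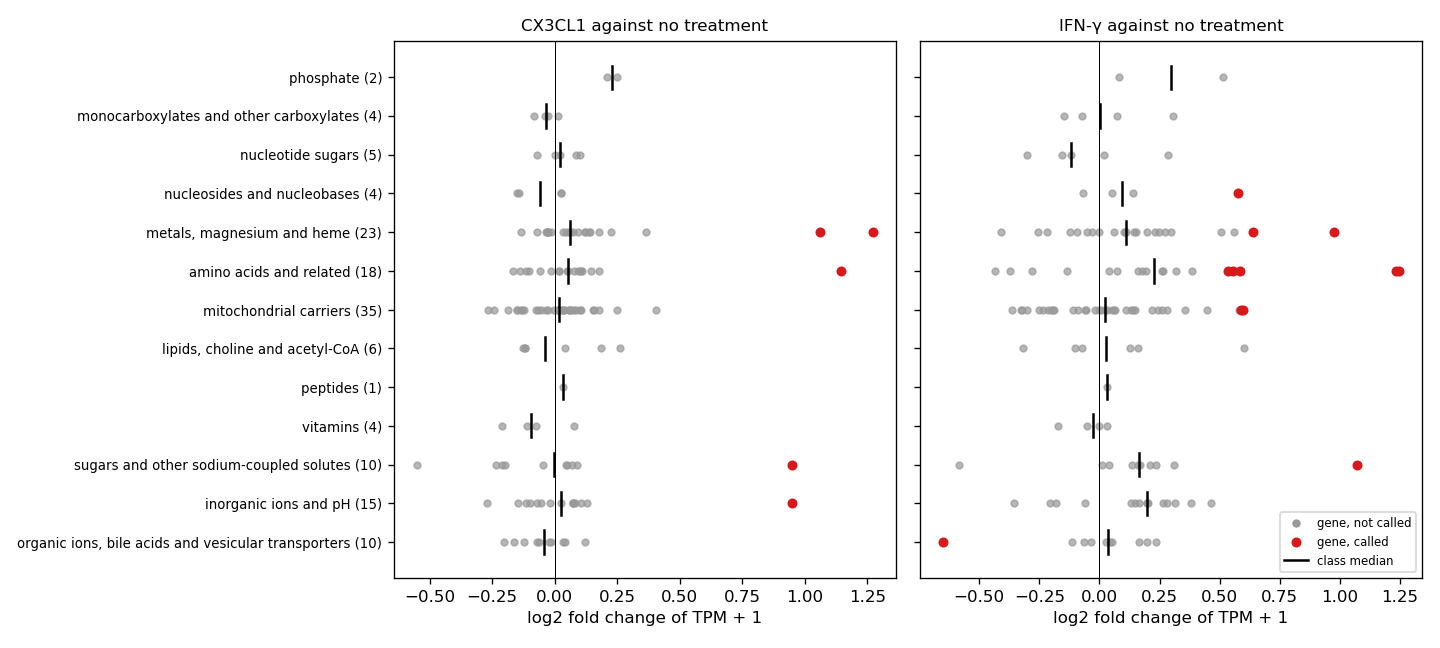
Log2 fold change of TPM + 1 (horizontal axis) for each member, in rows by substrate class, for CX3CL1 against no treatment (left) and IFN-γ against no treatment (right). Red points are called genes, gray points are not, and the black bar is the class median; 5 genes are called on the left and 12 on the right, of which 1 lies below 0.

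The largest rise with CX3CL1 was that of an iron carrier. SLC11A2 (DMT1; chromosome 15, 100387898 to 100425072, minus strand, mm10) imports ferrous iron together with protons. It was at 27.6, 26.0 and 23.0 TPM without treatment, 78.1, 48.5 and 66.0 with CX3CL1, 42.9, 32.6 and 39.2 with IFN-γ, and 80.0, 57.4 and 81.6 with both. Every CX3CL1 library lay above every untreated library, and every library with both agents lay above every IFN-γ library. The difference for CX3CL1 against no treatment was 1.27 ± 0.18 (log2, SE; adjusted p = 0.0019), a ratio of mean TPM of 2.51. In the presence of IFN-γ it was 0.91 ± 0.18 and did not pass (adjusted p = 0.062), but it passed with the replicate number as a block (adjusted p = 0.0054) and without CX3CL1 replicate 2 (adjusted p = 0.026). With IFN-γ alone, all libraries also lay above the untreated ones, at 0.56 ± 0.18 (adjusted p = 0.082, 0.011 with the block, 0.031 without CX3CL1 replicate 2). CX3CL1 replicate 2 is in neither of these comparisons and enters only through the shared spread. Without it both differences were unchanged, and the SE was 0.15 in place of 0.18. The call for CX3CL1 against no treatment held in all 20 alternatives, with adjusted p from 0.00017 to 0.015.

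SLC11A1 (NRAMP1; chromosome 1, 74375195 to 74386062, plus strand) is a divalent metal transporter known from the phagosomes of macrophages. Its levels were low throughout, at 0.0755, 0.103 and 0.0573 TPM without treatment, 1.06, 1.29 and 1.41 with CX3CL1, 0.482, 0.633 and 0.956 with IFN-γ, and 1.52, 2.33 and 2.78 with both. The 4 groups did not overlap in any of the 4 comparisons. On the log2(TPM + 1) scale, which understates changes of low genes, it rose by 1.06 ± 0.15 with CX3CL1 (adjusted p = 0.0019), by 0.64 ± 0.15 with IFN-γ (adjusted p = 0.019) and by 0.91 ± 0.15 with CX3CL1 added to IFN-γ (adjusted p = 0.021). It was the only member called in both CX3CL1 comparisons, which share no library but take their spread from 1 fit of all 4 groups. The call with CX3CL1 added to IFN-γ was lost with only the libraries compared. It was also lost without IFN-γ replicate 1 or 2 and without replicate 2 or 3 of both agents (adjusted p up to 0.19). The call with CX3CL1 against no treatment was kept in every alternative (adjusted p up to 0.014). That with IFN-γ against no treatment was lost with quantile normalization (adjusted p = 0.059). It was also lost without No treatment replicate 1, 2 or 3 and without IFN-γ replicate 3. SLC11A1 had to differ between groups to be a member. IFN-γ added to CX3CL1 gave 0.49 ± 0.15 (adjusted p = 0.086; 0.017 with the replicate block). The leukocyte markers summed to 0.156 to 2.12 TPM over all libraries, with 0.419 to 1.57 TPM in the untreated group 0.393 to 2.12 with CX3CL1, 0.317 to 0.543 with IFN-γ and 0.156 to 0.517 with both. LYZ2 gave most of it in every library, and their part in the result was not tested.

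Of the other metal carriers, SLC41A3, of the magnesium transporter family, rose with IFN-γ by 0.98 ± 0.25 (adjusted p = 0.032). Its levels were 5.10, 3.45 and 3.20 TPM without treatment and 13.2, 5.59 and 8.29 with IFN-γ, with the lowest treated library just above the highest untreated one. With IFN-γ in the presence of CX3CL1 its difference was 0.82 ± 0.25 (adjusted p = 0.093; 0.0026 with the replicate block). The zinc importer SLC39A14, known from inflamed tissues, was at 43.1 ± 6.91 TPM (SD, n = 3) without treatment, 39.0 ± 2.95 with CX3CL1 and 46.3 ± 4.43 with IFN-γ, with overlapping libraries. The zinc exporter SLC30A1 was at 9.99 ± 1.92 TPM without treatment and 14.4 ± 0.552 with IFN-γ, all treated libraries being higher, at a difference of 0.50 ± 0.17 (adjusted p = 0.095). SLC39A7 had a difference of 0.30 ± 0.11 with IFN-γ (adjusted p = 0.13). In all, 2 of the 23 metal carriers rose with CX3CL1 (8.70%, all genes 1.78%) and 2 with IFN-γ (8.70%, all genes 5.91%), 1 with CX3CL1 added to IFN-γ (4.35%, all genes 0.345%), and none fell. SLC11A1 is 1 of the genes in each of these counts.

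SLC7A11 (xCT; chromosome 3, 49892526 to 50443614, minus strand), which imports cystine in exchange for glutamate, was higher with each agent and highest with both. Its levels were 5.71, 9.60 and 5.57 TPM without treatment, 12.3, 24.4 and 14.0 with CX3CL1, 20.1, 14.5 and 18.0 with IFN-γ, and 42.5, 26.5 and 32.1 with both. The libraries with both agents all lay above those of each other group, while the CX3CL1 and IFN-γ groups overlapped. It rose by 1.15 ± 0.26 with CX3CL1 (adjusted p = 0.040), by 1.25 ± 0.26 with IFN-γ (adjusted p = 0.0092) and by 0.99 ± 0.26 with IFN-γ in the presence of CX3CL1 (adjusted p = 0.048). The last call was lost with either rescaling, with a pseudocount of 0.1, without a filter and with only the libraries compared (adjusted p over 20 alternatives 0.013 to 0.19). CX3CL1 in the presence of IFN-γ gave 0.89 ± 0.26 (adjusted p = 0.41). The CX3CL1 effect in the presence of IFN-γ minus that in its absence was -0.26 (95% confidence interval -1.05 to 0.53). CX3CL1 replicate 2 held the highest single-agent level, and without it the CX3CL1 difference was 0.86 ± 0.23 and did not pass (adjusted p = 0.11; range over 20 alternatives 0.024 to 0.22). The CX3CL1 call was also lost without No treatment replicate 1 or 3 and without CX3CL1 replicate 3. The fits without a filter and with only the libraries compared ended it too.

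SLC2A6 (GLUT6; chromosome 2, 27021363 to 27027998, minus strand), a facilitative hexose transporter found on lysosomes, also rose with each agent alone and was not called when a second agent was added. Its levels were 4.20, 3.28 and 3.65 TPM without treatment, 11.5, 5.15 and 8.74 with CX3CL1, 9.57, 7.57 and 9.63 with IFN-γ, and 11.1, 7.98 and 10.7 with both. All treated libraries lay above the untreated ones, and the 3 treated groups overlapped each other. It rose by 0.95 ± 0.22 with CX3CL1 (adjusted p = 0.045) and by 1.07 ± 0.22 with IFN-γ (adjusted p = 0.0083). Without the low CX3CL1 replicate 2 the CX3CL1 difference was 1.23 ± 0.17 (adjusted p = 0.0034; range over 20 alternatives 0.0021 to 0.20). That was the only 1 of the 6 fits without a compared library that kept the CX3CL1 call. The CX3CL1 call was also lost without a filter and with only the libraries compared. Against the single agents, both together gave 0.13 ± 0.22 and 0.26 ± 0.22 (adjusted p = 0.98 and 0.61). Its CX3CL1 effect with IFN-γ present minus that without it was -0.82 (95% confidence interval -1.49 to -0.15), with an unadjusted p of 0.021 and an adjusted p of 1.0.

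SLC11A1, SLC7A11 and SLC2A6 were the only members called with each agent alone, and for that reason the 250 bases before their start sites are printed (RefSeq, GRCm38.p6, sense strand, 5′ to 3′). Capitals mark matches, on either strand, to any of 6 elements: the GAS element (TTCNNNGAA), the core of the ISRE (GAAANNGAA), the κB consensus, the AP-1 element (TGANTCA), the core of the antioxidant response element (TGACNNNGC) and the ATF4 element (TGATGNAA). The windows are chr3:50443614-50443863 (minus strand) for SLC7A11, chr1:74374953-74375202 (plus strand) for SLC11A1 and chr2:27027999-27028248 (minus strand) for SLC2A6.
SLC7A11: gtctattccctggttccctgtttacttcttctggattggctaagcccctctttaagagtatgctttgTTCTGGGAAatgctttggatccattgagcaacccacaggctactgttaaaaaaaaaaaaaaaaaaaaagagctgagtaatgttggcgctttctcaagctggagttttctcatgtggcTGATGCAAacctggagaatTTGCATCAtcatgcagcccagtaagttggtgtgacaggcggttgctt
SLC11A1: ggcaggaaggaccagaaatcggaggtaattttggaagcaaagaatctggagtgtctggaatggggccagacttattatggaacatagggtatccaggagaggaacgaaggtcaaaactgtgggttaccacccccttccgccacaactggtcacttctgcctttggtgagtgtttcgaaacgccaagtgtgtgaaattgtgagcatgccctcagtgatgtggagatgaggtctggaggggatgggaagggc
SLC2A6: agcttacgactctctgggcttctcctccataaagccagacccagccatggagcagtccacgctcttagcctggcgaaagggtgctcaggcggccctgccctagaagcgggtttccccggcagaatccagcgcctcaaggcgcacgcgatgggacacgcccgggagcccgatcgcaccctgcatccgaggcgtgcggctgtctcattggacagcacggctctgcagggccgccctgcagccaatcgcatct

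The SLC7A11 window held 1 GAS match, 183 to 175 bases before the start, and 2 ATF4 matches, 66 to 59 and 47 to 40 bases before it, in opposite orientations, and these matches do not overlap. None of the 6 elements was found in the SLC11A1 and SLC2A6 windows. Over 32851 RefSeq windows of 300 bases (250 before and 50 after a start), 8.30% held a GAS match, 8.56% an ISRE core, 8.46% a κB match, 7.81% an AP-1 match, 12.4% an antioxidant response core and 3.97% an ATF4 match. Among the 107 members with a window, 6 held GAS, 6 the ISRE core, 9 κB, 6 AP-1, 26 the antioxidant response core and 3 the ATF4 element. Members were counted per gene, with a match in any window of the gene, and some genes have several windows. These counts are therefore not comparable with the shares per window. Of the 11 called members with a window, SLC41A3 held a κB match, SLC38A7 an AP-1 match, and SLC6A9, SLC25A33 and SLC36A1 an antioxidant response core. SLC11A2, SLC12A2 and SLC14A1 had no window. These matches are descriptions of letters and not of binding.

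Of the 12 members called with IFN-γ, 5 were amino acid carriers, so that 5 of 18 in that class rose and none fell (27.8%, where 5.91% of all genes tested rose). The glycine transporter SLC6A9 (GLYT1; chromosome 4, 117834506 to 117875198, plus strand) was at 13.6, 25.2 and 16.2 TPM without treatment, 14.9, 23.0 and 20.4 with CX3CL1, 47.9, 38.4 and 43.2 with IFN-γ, and 52.7, 36.4 and 40.6 with both. The libraries with and without IFN-γ did not overlap, and CX3CL1 left the level within the untreated range. It rose with IFN-γ by 1.23 ± 0.22 (adjusted p = 0.0030), and by 1.12 ± 0.22 in the presence of CX3CL1 (adjusted p = 0.0096). CX3CL1 alone gave 0.10 ± 0.22 (adjusted p = 1.0; 95% confidence interval -0.37 to 0.57).

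SLC3A2 (chromosome 19, 8706882 to 8723369, minus strand), the heavy chain shared by SLC7A11, SLC7A5 and other exchangers, was at 143, 175 and 149 TPM without treatment, 151, 165 and 154 with CX3CL1, 246, 237 and 217 with IFN-γ, and 236, 233 and 218 with both. Again the 6 libraries with IFN-γ lay above the 6 without it. The difference was 0.59 ± 0.10 (adjusted p = 0.0018) and, in the presence of CX3CL1, 0.54 ± 0.10 (adjusted p = 0.0053). Its most abundant light chain, SLC7A5, which exchanges glutamine for leucine, was at 213 ± 70.5 TPM (SD, n = 3) without treatment and 257 ± 20.3 with IFN-γ, with overlapping libraries and a difference of 0.32 ± 0.20 (adjusted p = 0.38). Per length, SLC7A11 at 6.96 to 33.7 TPM (group means) was below SLC7A5 in every group.

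The lysosomal glutamine exporter SLC38A7 was at 19.1, 18.5 and 17.8 TPM without treatment, 20.8, 17.6 and 19.1 with CX3CL1, 29.5, 26.4 and 25.8 with IFN-γ, and 30.3, 24.0 and 25.7 with both. It rose by 0.54 ± 0.11 (adjusted p = 0.0083) and, in the presence of CX3CL1, by 0.45 ± 0.11 (adjusted p = 0.033). Without CX3CL1 replicate 2 the latter was 0.40 ± 0.11 and did not pass (adjusted p = 0.062, range over 20 alternatives 0.0044 to 0.17). SLC36A1, a proton-coupled amino acid transporter of lysosomes, was at 10.6, 8.12 and 8.16 TPM without treatment and 15.9, 12.5 and 12.4 with IFN-γ, a rise of 0.55 ± 0.15 (adjusted p = 0.045). In both genes all IFN-γ libraries lay above all untreated ones. The call of SLC36A1 was lost without IFN-γ replicate 1, 2 or 3 and without No treatment replicate 2 or 3 (adjusted p over 20 alternatives 0.0021 to 0.18), and in the presence of CX3CL1 it was 0.34 ± 0.15 (adjusted p = 0.27; 0.037 with the replicate block).

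Other abundant amino acid carriers were not called in any comparison. SLC1A5, which takes up glutamine, was at 231 ± 54.9 TPM without treatment, 237 ± 26.3 with CX3CL1, 273 ± 10.5 with IFN-γ and 239 ± 35.6 with both (SD, n = 3). The glutamine and alanine transporter SLC38A2 was at 423 ± 46.4, 458 ± 66.3, 385 ± 33.4 and 414 ± 13.7 TPM in the same order. The arginine transporter SLC7A1 was at 97.6 ± 18.5, 108 ± 20.3, 116 ± 0.907 and 120 ± 0.633 TPM. All of these overlapped between untreated and singly treated libraries. The taurine transporter SLC6A6 was at 101 ± 10.6 TPM without treatment and 78.1 ± 10.9 with IFN-γ without overlap, at -0.37 ± 0.14 (adjusted p = 0.15; 0.012 with the replicate block), and the creatine transporter SLC6A8 at 79.2 ± 12.5 and 104 ± 20.7, at 0.38 ± 0.17 (adjusted p = 0.21; 0.0032 with the block).

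**Figure D3:**
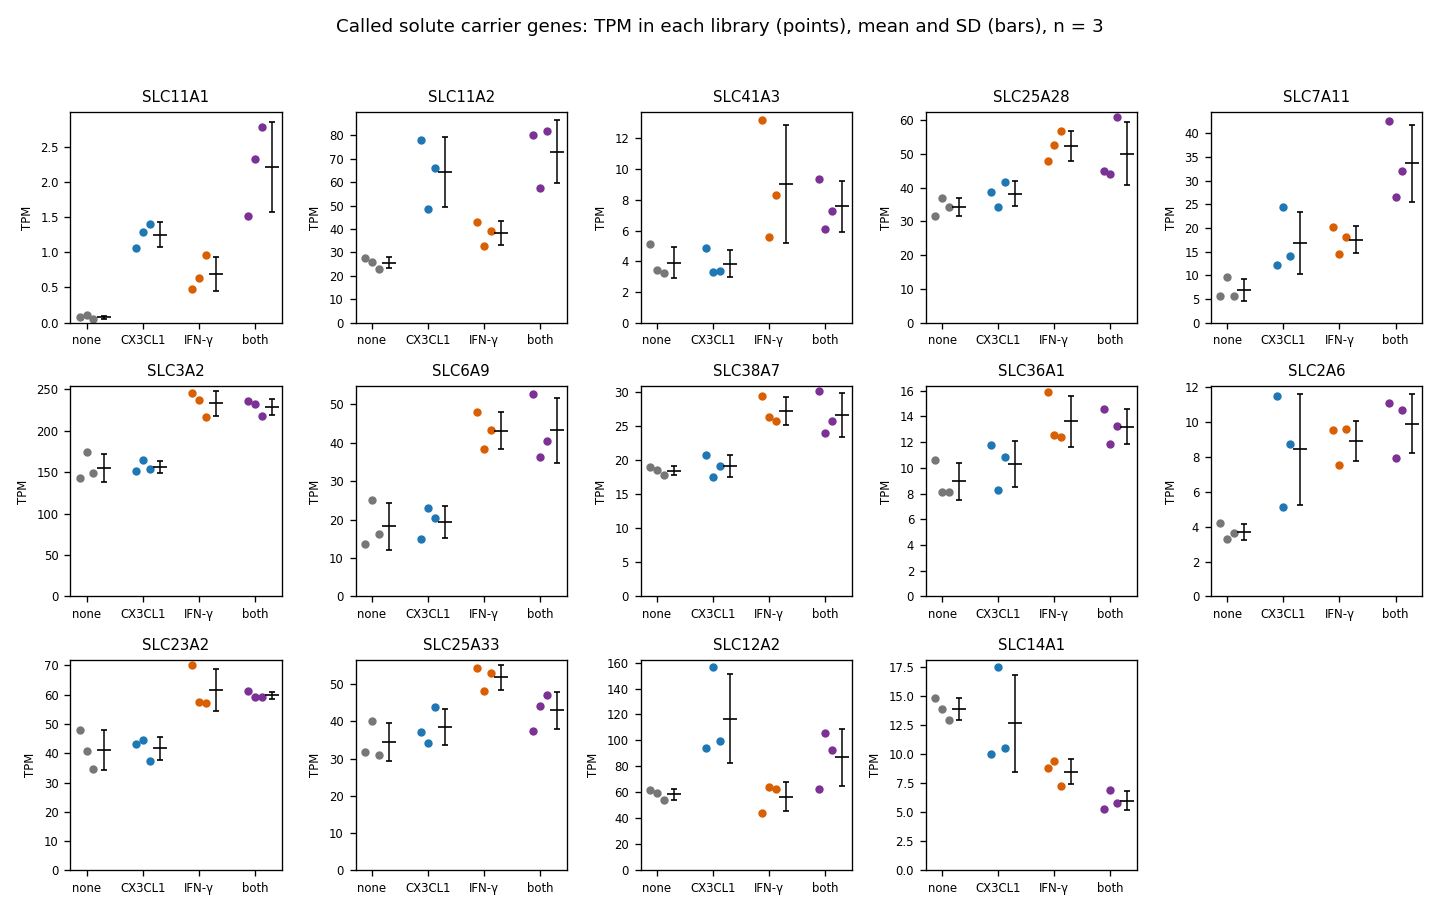
TPM (vertical axes, from 0) of the 14 called members in each of 3 libraries per group (points) with the mean and SD (bars). SLC11A2 and SLC12A2 are high in the groups with CX3CL1, SLC6A9, SLC3A2, SLC38A7 and SLC23A2 in the groups with IFN-γ, SLC7A11 is highest with both, and SLC14A1 is lowest with both.

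Among ion carriers, only SLC12A2 passed. This sodium, potassium and chloride cotransporter (NKCC1) sets cell chloride and volume. It was at 61.9, 59.5 and 54.0 TPM without treatment, 94.6, 156 and 99.5 with CX3CL1, 43.9, 63.9 and 62.6 with IFN-γ, and 62.7, 106 and 92.9 with both. All CX3CL1 libraries lay above the untreated ones, whereas the libraries with both agents overlapped those with IFN-γ. It rose by 0.95 ± 0.22 with CX3CL1 (adjusted p = 0.046) and differed by 0.59 ± 0.22 in the presence of IFN-γ (adjusted p = 0.83). CX3CL1 replicate 2 held the highest value, and without it the difference was 0.72 ± 0.21 (adjusted p = 0.13; range over 20 alternatives 0.0069 to 0.22). The call was also lost without No treatment replicate 1, 2 or 3 and without CX3CL1 replicate 3. Quantile normalization, the fit without a filter and that without the intensity trend ended it too. The bicarbonate cotransporter SLC4A7 (20.0 ± 3.21 TPM without treatment) was not called, with differences of 0.10 ± 0.15 with CX3CL1 and -0.18 ± 0.15 with IFN-γ.

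The urea transporter SLC14A1 was the 1 member called lower in the fit of all 12 libraries, with IFN-γ and with IFN-γ in the presence of CX3CL1, and other settings called up to 7 lower with IFN-γ. It was at 14.8, 13.8 and 12.9 TPM without treatment, 10.01, 17.4 and 10.5 with CX3CL1, 8.77, 9.40 and 7.27 with IFN-γ, and 5.29, 6.92 and 5.76 with both. All libraries with IFN-γ lay below all those without it, and those with both agents below those with IFN-γ alone. With IFN-γ it changed by -0.65 ± 0.18 (adjusted p = 0.045), a call lost when any of the 6 libraries compared was left out, and in the presence of CX3CL1 by -0.93 ± 0.18 (adjusted p = 0.0099), a call kept in each such case but lost with only the libraries compared (adjusted p = 0.054). CX3CL1 in the presence of IFN-γ gave -0.44 ± 0.18 (adjusted p = 0.98).

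SLC23A2 (SVCT2), a sodium-coupled ascorbate transporter that shares its family with nucleobase carriers, rose with IFN-γ in both settings. Its levels were 48.1, 40.9 and 34.5 TPM without treatment, 43.1, 44.7 and 37.2 with CX3CL1, 70.0, 57.7 and 57.2 with IFN-γ, and 61.1, 59.1 and 59.1 with both. The libraries with and without IFN-γ did not overlap. The differences were 0.58 ± 0.13 (adjusted p = 0.013) and 0.51 ± 0.13 (adjusted p = 0.036). The nucleoside transporter SLC29A1 was at 86.6 ± 15.5 TPM without treatment and 94.6 ± 3.74 with IFN-γ, with overlap. The reduced folate carrier SLC19A1 was at 22.9 ± 3.29 and 22.7 ± 1.73 TPM.

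Of the 35 mitochondrial carriers, 2 rose with IFN-γ (5.71%, near the 5.91% of all genes) and none was called with CX3CL1 by limma. SLC25A28 (mitoferrin 2), which brings iron into mitochondria, was at 31.6, 36.9 and 34.4 TPM without treatment and 47.8, 52.7 and 56.8 with IFN-γ, a rise of 0.60 ± 0.13 (adjusted p = 0.013). SLC25A33, which carries pyrimidine nucleotides, was at 31.8, 40.2 and 31.1 TPM without treatment and 54.4, 48.1 and 53.1 with IFN-γ, a rise of 0.59 ± 0.13 (adjusted p = 0.014). In neither did the groups overlap. In the presence of CX3CL1 the IFN-γ differences were 0.37 ± 0.13 for SLC25A28 (adjusted p = 0.15; 0.047 with the replicate block) and 0.16 ± 0.13 for SLC25A33 (adjusted p = 0.59). The paralog SLC25A37 (mitoferrin 1) was at 34.4 ± 1.95 TPM without treatment, 45.8 ± 0.618 with CX3CL1, 47.7 ± 8.31 with IFN-γ and 68.5 ± 23.4 with both, higher in every library of each single agent but not called (adjusted p = 0.69 and 0.21). 

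The most abundant mitochondrial carriers did not pass. SLC25A4, the translocase that exchanges ADP for ATP in differentiated tissues, was at 701, 829 and 713 TPM without treatment, 695, 656 and 683 with CX3CL1, 559, 629 and 551 with IFN-γ, and 469, 594 and 514 with both. All libraries with IFN-γ lay below all those without it. The IFN-γ differences were -0.36 ± 0.11 (adjusted p = 0.061; 0.019 with the replicate block) and, in the presence of CX3CL1, -0.37 ± 0.11 (adjusted p = 0.077; 0.022 with the block). Its paralog SLC25A5 was at 1117 ± 185 TPM without treatment and 1030 ± 84.1 with IFN-γ, and SLC25A3 at 877 ± 148 and 859 ± 63.9, both with overlap.

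Among the sugar and lactate carriers, only SLC2A6 was called in the fit of all 12 libraries. The glucose transporter SLC2A1 was at 88.9 ± 23.4 TPM without treatment, 94.4 ± 21.8 with CX3CL1, 93.6 ± 35.1 with IFN-γ and 124 ± 59.3 with both, with overlapping libraries in every comparison. Replicate 1 was the highest library of each group, at 116, 115, 134 and 191 TPM in the same order. The lactate transporters SLC16A1 (198 ± 17.8, 200 ± 23.5, 187 ± 3.73 and 190 ± 16.5 TPM) and SLC16A3 (57.0 ± 10.2, 56.0 ± 13.4, 52.1 ± 15.0 and 51.3 ± 10.4 TPM) overlapped in every comparison. For SLC16A1 the 95% confidence interval of the log2 difference was -0.22 to 0.24 with CX3CL1 and -0.30 to 0.16 with IFN-γ. The phosphate importer SLC20A1 was at 77.1 ± 14.9 TPM without treatment and 111 ± 24.7 with IFN-γ, at 0.51 ± 0.18 (adjusted p = 0.11; 0.0017 with the replicate block). The lysosomal peptide and histidine transporter SLC15A4 was at 17.7 ± 2.41 TPM without treatment and 18.1 TPM with either agent.

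The comparisons of 1 agent with and without the other share no library, so they can be set side by side. For CX3CL1 the log2 differences of 81 of 137 members had the same sign in both (59.1%, all genes 65.9%), and Pearson's r across genes, which are not independent replicates, was 0.777 (all genes 0.601). For IFN-γ 111 members had the same sign (81.0%, all genes 78.8%), with r = 0.871 (all genes 0.883). SLC6A9, SLC7A11, SLC3A2, SLC23A2 and SLC38A7 rose, and SLC14A1 fell, in both IFN-γ comparisons. In the presence of CX3CL1, leaving out a compared library ended the call of SLC23A2 in 5 of 6 cases, all but CX3CL1 replicate 2 (adjusted p over 20 alternatives 0.0057 to 0.13). Those of SLC38A7 and SLC7A11 were lost in 4 of 6, both without CX3CL1 replicate 3 and without replicate 1 or 3 of both agents, SLC38A7 also without CX3CL1 replicate 2 and SLC7A11 also without CX3CL1 replicate 1. Without CX3CL1 replicate 2 the other 5 differences in the presence of CX3CL1 were 1.25 ± 0.24 for SLC6A9, 1.27 ± 0.23 for SLC7A11, 0.58 ± 0.10 for SLC3A2, 0.56 ± 0.14 for SLC23A2 and -0.69 ± 0.13 for SLC14A1 (adjusted p = 0.015, 0.013, 0.0084, 0.037 and 0.015). No member passed the test that the effect of 1 agent depends on the other, where 0% of all genes were called by limma. With the replicate block, 52 of all genes (3 higher, 49 lower) and none of the members were called. Still, 2 members, SLC2A6 and SLC25A33, and 273 of all genes had an unadjusted p under 0.05.

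**Figure D4:**
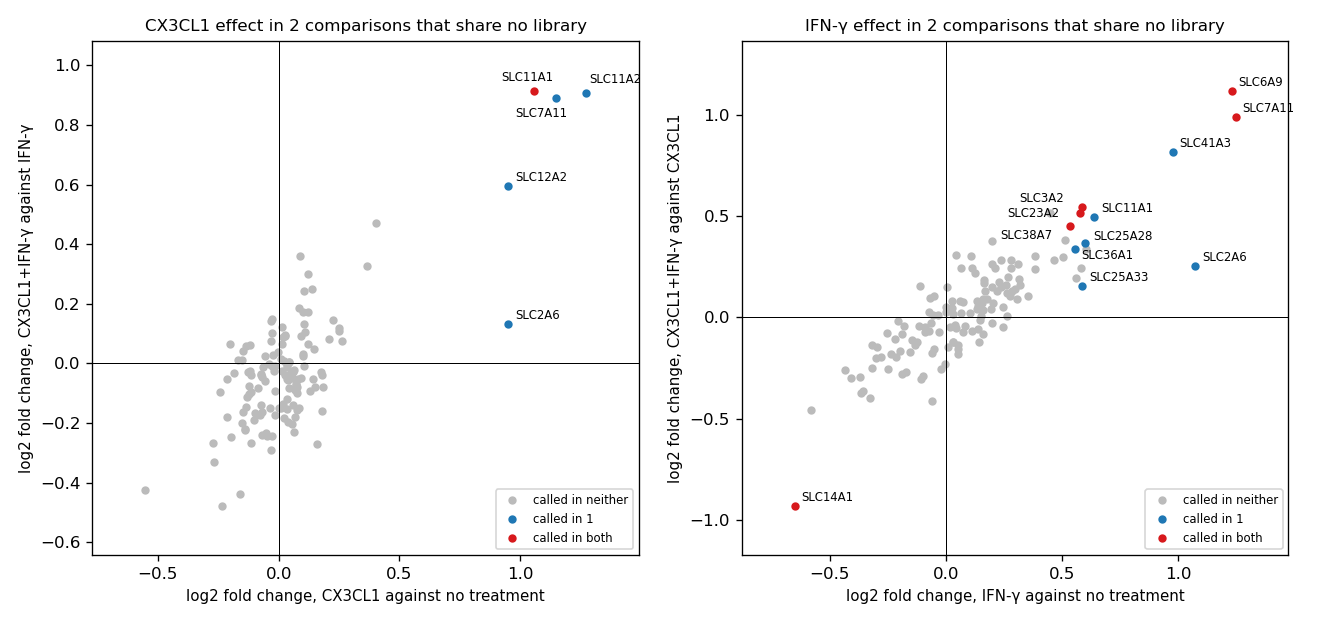
Log2 fold change of each member without the other agent (horizontal axis) and with it (vertical axis), for CX3CL1 (left) and IFN-γ (right). Color gives in how many of the 2 comparisons the gene was called. On the left 1 gene, SLC11A1, is called in both, and on the right 6 genes are, with SLC2A6 lying near 0 on the vertical axis of both plots.

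Libraries of the same number deviated alike from their group means in some comparisons, and every group had the same replicate numbers. Blocking on them raised the members called with IFN-γ against no treatment to 20 higher and 7 lower, with both agents against IFN-γ to 2 higher, and with both against CX3CL1 to 14 higher and 5 lower. The calls over all genes rose too, from 932 to 1929, from 43 to 95 and from 558 to 1369. Scaling moved the split of the IFN-γ calls from 11 higher and 1 lower to 11 and 4 with median-ratio scaling and to 10 and 6 with quantile normalization, where the split over all genes moved from 702 and 230 to 640 and 351 and to 556 and 536. That of IFN-γ in the presence of CX3CL1 moved from 5 and 1 to 4 and 1 and to 4 and 3 (all genes from 447 and 111 to 357 and 187 and to 349 and 228). Of the 24 calls, 9 held when each of the 6 libraries compared was left out in turn: SLC11A1 and SLC11A2 with CX3CL1, SLC2A6, SLC6A9, SLC38A7 and SLC3A2 with IFN-γ, and SLC6A9, SLC3A2 and SLC14A1 with IFN-γ in the presence of CX3CL1. Among the others with IFN-γ, No treatment replicate 3 was the library whose absence ended the calls of SLC7A11 (adjusted p up to 0.054), SLC41A3 (up to 0.14), SLC25A28 (up to 0.073), SLC25A33 (up to 0.078), SLC23A2 (up to 0.070) and SLC11A1 (up to 0.098 over the 20 alternatives). Those of SLC41A3, SLC25A33 and SLC23A2 were also lost without IFN-γ replicate 1, those of SLC41A3, SLC25A28, SLC25A33 and SLC11A1 without IFN-γ replicate 3, those of SLC25A28, SLC25A33 and SLC11A1 without No treatment replicate 1, and those of SLC41A3 and SLC11A1 without No treatment replicate 2.

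Genes that work with these carriers were counted from lists chosen with earlier results of these data known. Of all genes tested, 5.91% rose and 1.94% fell with IFN-γ, at a median of 0.03. With CX3CL1, 1.78% rose and 0.168% fell, at a median of -0.02. In the presence of CX3CL1, IFN-γ raised 3.76% of all genes. Of 15 measured genes of the amino acid response driven by ATF4, 5 rose with IFN-γ and none fell, at a median of 0.40. These were the stress factor DDIT3 (1.40 ± 0.23, adjusted p = 0.0019), the pseudokinase TRIB3 (0.97 ± 0.22, adjusted p = 0.016), the leucine sensor SESN2 (0.58 ± 0.13, adjusted p = 0.016) and the tRNA synthetases SARS (0.46 ± 0.09) and AARS (0.41 ± 0.09). With CX3CL1 none of the 15 was called, at a median of 0.07, and DDIT3, SARS and AARS rose again with IFN-γ in the presence of CX3CL1. Of 12 genes of glutathione synthesis and the NRF2 response, none was called with a single agent (medians -0.00020 with CX3CL1 and 0.0042 with IFN-γ). In the presence of CX3CL1 IFN-γ raised 1 of them, the pentose phosphate enzyme G6PDX (0.43 ± 0.11, adjusted p = 0.035).

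Of 10 measured genes of zinc and iron handling, the metallothionein MT2 alone was called, with IFN-γ (1.05 ± 0.13, adjusted p = 0.00020) and in the presence of CX3CL1 (0.88 ± 0.13, adjusted p = 0.0021). The shares of all genes that rose in these comparisons were 5.91% and 3.76%. None of 13 measured glycolysis genes was called in any comparison by limma, where 0.362% to 7.85% of all genes were. Their medians lay between -0.05 and 0.09. Of 5 measured arginine-using enzymes, ODC1, which starts polyamine synthesis, rose with CX3CL1 (0.65 ± 0.10) and with CX3CL1 added to IFN-γ (0.62 ± 0.10). Over all genes, 1.78% and 0.345% rose in these 2 comparisons. The polyamine acetylase SAT1 rose with each agent (0.47 ± 0.11 and 0.56 ± 0.11) and with IFN-γ in the presence of CX3CL1 (0.48 ± 0.11). The nitric oxide synthase NOS2 was called against each single agent when both were given (3.28 ± 0.61 against IFN-γ and 3.02 ± 0.61 against CX3CL1).

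Other transporters outside the symbol pattern were also read. Over all genes tested, 1.78% rose with CX3CL1, and 5.91% rose and 1.94% fell with IFN-γ. With IFN-γ in the presence of CX3CL1, 3.76% rose and 0.935% fell. Of 25 measured ABC transporters, the drug and glutathione conjugate exporter ABCC1 rose with CX3CL1 (0.56 ± 0.12, adjusted p = 0.033), and the cholesterol exporters ABCA1 (0.64 ± 0.16) and ABCG1 (0.39 ± 0.10) and the exporter ABCC10 (0.34 ± 0.09) rose with IFN-γ. Of 3 measured organic anion transporters of the SLCO type, SLCO1A5 fell with IFN-γ (-0.99 ± 0.19, adjusted p = 0.0058) and in the presence of CX3CL1 (-1.07 ± 0.19, adjusted p = 0.0058), where SLCO2A1, a prostaglandin transporter, rose (0.52 ± 0.11). Of 9 measured chaperones and regulators of carriers, STOM, which binds glucose transporters, rose with IFN-γ (0.90 ± 0.18) and so did TXNIP, an arrestin that lowers glucose uptake (1.32 ± 0.23). Both rose again in the presence of CX3CL1 (1.10 ± 0.18 and 1.19 ± 0.23).

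Of the 197 symbols under 1 TPM, 54 were listed at 0 in every library and 17 were high enough to be tested. The zinc importer SLC39A4 was at 0.104, 0.0529 and 0.0197 TPM without treatment and 0.680, 0.604 and 1.38 with CX3CL1, a rise of 0.81 ± 0.17 (adjusted p = 0.021). The glutamate transporter SLC1A1 was at 0.0881, 0.0699 and 0.0335 TPM without treatment and 0.428, 0.271 and 0.483 with IFN-γ, a rise of 0.39 ± 0.11 (adjusted p = 0.048). Both genes passed the 0.2 TPM filter only through treated libraries, so they had to differ, and both were named after their values were seen.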

How the data were processed

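RNA of CT26 cells was sequenced from strand-specific libraries by the authors, who aligned reads to mm10 and counted genes with STAR 2.7.3a and tested the counts with DESeq2 1.22.1. The deposited table gives TPM per gene and library, and each library sums to 1000000. How counts became TPM, and from which annotation, is not given in the sources used here. TPM carry no depth, so the read depth is unknown, and a 0 can be a failed estimate. Of 23636 symbols, 6747 were at 0 in all 12 libraries, 26 had been turned into dates and 2 names occurred more than once.

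Because counts were not used here, log2(TPM + 1) was fitted by limma 3.58.1 under R 4.3.3 (lmFit, then eBayes with its trend option) for the 11878 genes averaging 0.2 TPM or more, over all 4 groups, without a replicate block, and p-values were adjusted by the Benjamini-Hochberg method per comparison at 0.05. On simulated data for CX3CL1 against no treatment over 11878 genes, 174 of 200 genes changed by 1 on the log2 scale were recovered with 5 false calls, and 199 of 200 changed by 2 with 4. The changed genes were drawn from those with a mean log2(TPM + 1) above 2, and the simulated libraries were independent. The recovery therefore does not cover lower genes or libraries that correlate by replicate number. Replicates are labelled biological, and what a replicate number shares is not stated, so p-values measure the spread between these cultures. Deviations from the group means of same-numbered libraries correlated at 0.220 to 0.460 between no treatment and IFN-γ, at 0.630 to 0.649 between IFN-γ and both agents, and at 0.351 to 0.428 between CX3CL1 and both, and the replicate block is printed beside results it changes there. Genes named are up to 12 called rises and falls per comparison, well-known carriers, the 10 most abundant members, 3 on each side of the threshold, and the called genes of the other lists. Not every gene this rule selects is reported here. The members, lists and sequence elements were chosen with earlier results of these data known. Gene positions are from GENCODE vM21 (mm10), and start-site windows from RefSeq for 107 of 137 members. Alternatives tried were the replicate block, leaving out each library, quantile normalization and median-ratio scaling, fits without the trend or on only the compared libraries, a filter at 1 TPM or none, and 0.1 as pseudocount.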

Additional observations from a re-analysis of the deposited data

How the results depend on the processing

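No called gene reversed under any of the 20 alternatives; of 480 values 374 kept their call and 106 lost it. Of the 24 calls, 13 were lost without No treatment replicate 3, 10 without IFN-γ replicate 3, 9 without CX3CL1+IFN-γ replicate 3 and 3 without CX3CL1 replicate 1 or 2. The count of 5 members higher with CX3CL1 against no treatment became 2 without a filter and 3 with only the libraries compared, and 2 to 5 when a library was left out: 3 without CX3CL1 replicate 2, No treatment replicate 2 or IFN-γ replicate 2, and 2 without CX3CL1 replicate 3, No treatment replicate 1 or 3, IFN-γ replicate 3 or CX3CL1+IFN-γ replicate 3. The 11 members higher with IFN-γ became 20 with the replicate block and 4 to 18 without a library (18 without CX3CL1 replicate 2, 7 without IFN-γ replicate 1, 6 without IFN-γ replicate 3, 4 without No treatment replicate 3). Over all genes, 702 higher became 1353 with the block, 997 without CX3CL1 replicate 2 and 423 without No treatment replicate 3. The 1 member lower with IFN-γ became 0 without a filter, 4 with median-ratio scaling, 6 with quantile normalization, 3 with only the libraries compared, 7 with the block and 0 to 4 without a library (4 without CX3CL1 replicate 2). For CX3CL1 in the presence of IFN-γ the 1 higher member became 0 with only the libraries compared, 2 with the block and 0 to 2 without a library (0 without IFN-γ replicate 1 or 2 or CX3CL1+IFN-γ replicate 3, 2 without CX3CL1 replicate 1 or 2), and the 0 lower remained 0. For IFN-γ in the presence of CX3CL1 the 5 higher members became 3 without a filter, 2 with only the libraries compared, 14 with the block and 2 to 5 without a library (2 without CX3CL1 replicate 3, IFN-γ replicate 2 or CX3CL1+IFN-γ replicate 3), and the 1 lower became 3 with quantile normalization, 0 with only the libraries compared, 5 with the block and 1 to 2 without a library. The interaction stayed at 0 members in each. Over all genes, 212 higher with CX3CL1 became 164 without a filter, 197 with only the libraries compared and 228 without No treatment replicate 1. The 230 lower with IFN-γ became 351 with median-ratio scaling, 536 with quantile normalization and 576 with the block. For CX3CL1 in the presence of IFN-γ, 41 higher became 89 with the block. For IFN-γ in the presence of CX3CL1, 447 higher became 1035 and 111 lower became 334 with the block. The causes of these shifts were not tested. Leaving out libraries or groups also leaves fewer samples for the fit, and the part of this in the shifts was not tested either.

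Between no treatment and CX3CL1 same-numbered libraries correlated at 0.387, 0.0047 and 0.301, so there the numbers were not taken as pairs. The block kept the 5 higher members and added 1 lower, SLC5A3 (adjusted p = 0.024, named after its value was seen). SLC5A3 was also lower with IFN-γ under the block (adjusted p = 0.0066), median-ratio scaling (0.020), quantile normalization (0.0078) and without CX3CL1 replicate 2 (0.048). In the presence of CX3CL1 it was lower with IFN-γ under the block (adjusted p = 0.028) and quantile normalization (0.036). All 24 calls were kept with the replicate block, which changed no call other than those given beside the results and the additional ones in its counts.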
